A study of Mus musculus with 8 samples.

Results

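The genes of the mitochondrial ribosome were followed here in mouse splenic hemophagocytes and resting splenic macrophages. They are the 77 genes whose symbol in the platform annotation begins with Mrpl or Mrps and a number, out of 19938 genes represented by a single-gene probe set, and each is read from its probe set with the highest mean over the 8 arrays. By symbol, 48 belong to the large subunit (Mrpl) and 29 to the small subunit (Mrps). Mrpl53 was found only on a probe set annotated to several genes and was not used here.

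The arrays were Affymetrix mouse Gene ST 1.0 chips, 4 for hemophagocytes (replicates 2, 3, 5 and 6) and 4 for resting macrophages (replicates 3, 4, 5 and 6). All mice were wild-type C57Bl/6j males aged 8 weeks. Hemophagocytes, macrophages that have taken up blood cells, came from mice injected intraperitoneally every second day, 4 doses in all, each of 37.5 ug CpG1826 (a Toll-like receptor 9 agonist) with 200 ug of clone 1B1.3A, an antibody that blocks the IL-10 receptor. Resting macrophages came from mice given 200 uL PBS on that schedule. Laser capture from spleen touch preparations took 20 cells per mouse, which were pooled and amplified. No macrophages without engulfed cells from treated mice are among the samples, so engulfment and treatment cannot be told apart. Nothing in the labels ties an array to particular mice, so p-values reflect only the variation among these arrays, some of which may be technical.

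Mitochondria carry their own ribosome, which translates the few proteins encoded by mitochondrial DNA, all of them subunits of the respiratory chain and ATP synthase. Its RNAs are mitochondrial, but every one of its proteins is encoded in the nucleus, made in the cytosol and imported. Part of these proteins have bacterial counterparts, and the others were added in the mitochondrial lineage. The small subunit reads the messenger RNA, and the large subunit joins amino acids and is held at the inner membrane.

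None of the mitochondrial ribosomal protein genes changed between hemophagocytes and resting macrophages past the test's threshold (0 of 77 at an adjusted p under 0.05, limma with Benjamini-Hochberg adjustment over 19938 genes), where 0.01% of all genes did. The smallest adjusted p among them was 0.75. At an unadjusted p under 0.05, 1 member had higher values in hemophagocytes (Mrps21) and 2 had lower ones (Mrpl41 and Mrps5), and 1.53% and 5.05% of all genes did so in those directions. The members' counts were no larger than these shares of 77 genes would give. The groups did not overlap in 0 members with higher values, where 0.802% of all genes showed this, and in 1 member with lower values (Mrpl41), where 2.9% of all genes did.

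The intervals on most of these changes were narrow; they bound the array signal, which for most members was not clearly above background. A log2 change is given throughout as hemophagocyte minus resting. In 67 of 77 members (87.0%) the 95% interval lay wholly within 0.5 log2 units of 0, that is within a 1.41-fold change either way, and 92.5% of all genes had such an interval. In 75 members it lay within 1 log2 unit, the exceptions being Mrps18c and Mrps21. Apart from those, log2 changes ran between -0.22 (Mrps5) and 0.27 (Mrpl12), and the median standard error over the members was 0.09. The median change of all 77 was -0.03, against -0.04 over all genes, and 33 of 77 (42.9%) lay above 0, against 36.1% of all genes. That split moved with the scaling of the arrays, since 46 of the 77 lay above 0 after cyclic loess normalization and 41 after quantile normalization.

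**Figure D1:**
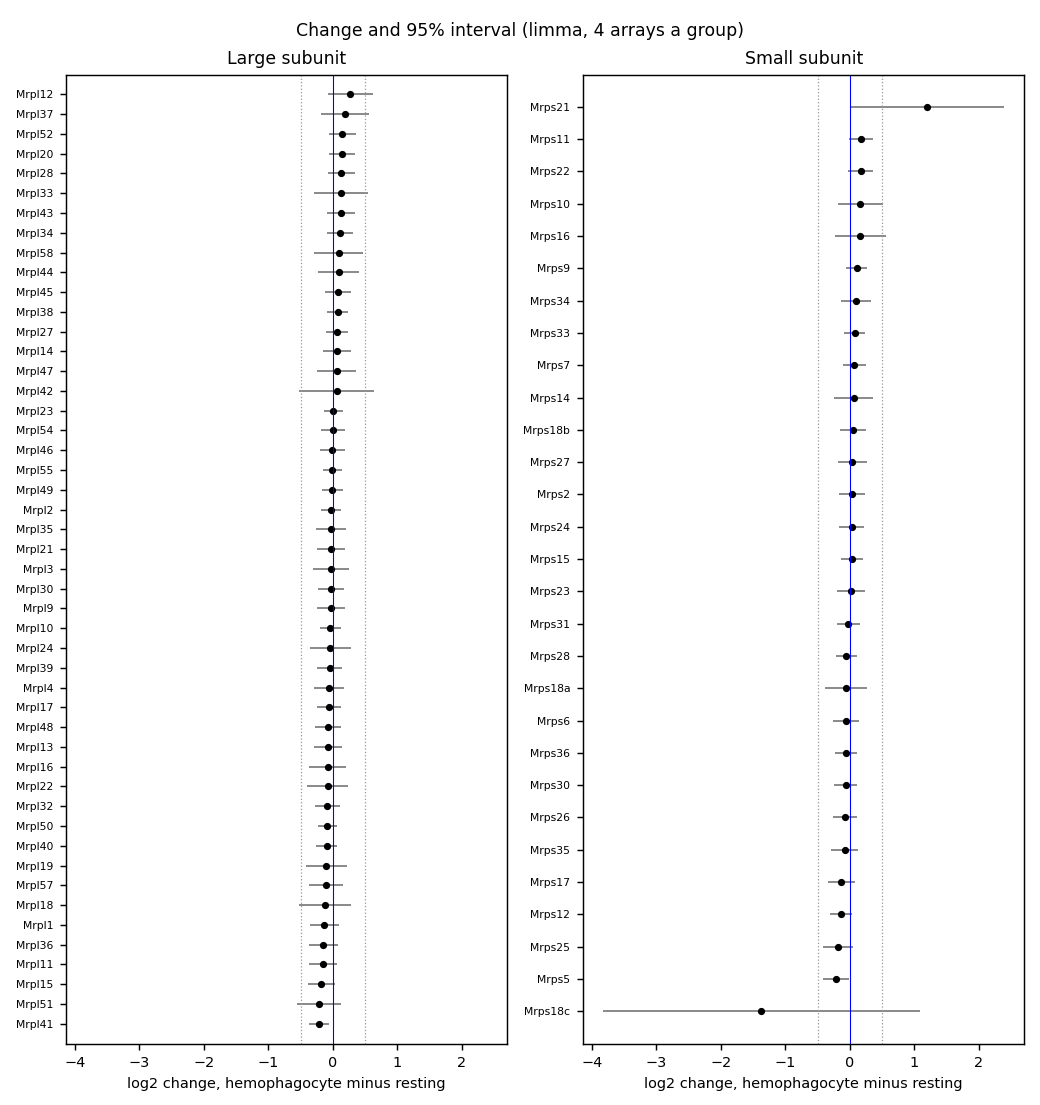
Log2 change of each of the 77 genes, hemophagocyte minus resting, with its 95% interval from limma (4 arrays a group), large subunit at left and small subunit at right, and dotted lines at 0.5 log2 units on either side of 0. Only Mrps18c and Mrps21 have intervals reaching beyond 1 log2 unit.

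Most members were dim. The arrays' medians over all probe sets were 6.10 to 6.17 (log2). On each array the 95th percentile of 1190 olfactory and vomeronasal receptor genes, which are sensory neuron genes used here as a gauge of background, lay between 7.42 and 7.81. On all 8 arrays, 70 of 77 members were below that percentile and 1, Mrpl10, was above it. The median over all genes, 6.22 to 6.30 on the arrays, was below it too, and the median over the members was 6.07 to 6.15. The share of all genes below the percentile was not counted, so dimness is not read as particular to the members. Probe sets differ in brightness for reasons of their own sequence, so a value below the percentile does not call a transcript absent. Whether most of the members were detected cannot be told. Of 15 macrophage markers 0 were above the percentile on every array and 6 were on some. The macrophage marker Cd68 reached 9.66 and 10.52 on hemophagocytes 3 and 5 and lay between 7.21 and 7.50 on the other hemophagocytes and the resting arrays. Most of the 15 did not follow it. Those over 1 log2 unit above their own median numbered 3 on hemophagocyte 3 and 5 on hemophagocyte 5. The median of the 15 deviations was 0.03 on hemophagocyte 3 and 0.42 on hemophagocyte 5. None of the T, B or NK cell markers (0 of 8, 0 of 7 and 0 of 7) was above the percentile on any array. On some arrays 2 of 10 neutrophil, 1 of 7 erythroid and 2 of 6 platelet markers were. On hemophagocyte 3 the receptor genes lay lower as a group, at a mean of 5.75 where the other hemophagocytes had 5.95 to 6.07 and the resting arrays 5.99 to 6.16.

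Large and small subunit genes were set side by side. The 48 large subunit genes had a median log2 change of -0.03, with 17 of 48 (35.4%) above 0. The 29 small subunit genes had a median of 0.03, with 16 of 29 (55.2%) above 0. The medians differed by -0.06, large minus small. Members were chosen with results of these data known, so no p is given for the difference. In the large subunit the sign of the median did not hold under cyclic loess normalization, where it was 0.01, or without hemophagocyte 6, where it was also 0.01. Without hemophagocyte 6 the subunit difference was 0.004, without resting macrophage 5 it was -0.02, and without resting macrophage 6, where the small subunit median was -0.02, it was -0.005.

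Array by array, the median level of the large subunit genes was 6.16, 6.09, 6.18 and 6.17 (log2) in hemophagocytes 2, 3, 5 and 6, against 6.18, 6.14, 6.17 and 6.15 in resting macrophages 3, 4, 5 and 6. The small subunit genes had medians of 6.03, 5.94, 6.09 and 6.00 in hemophagocytes, against 6.09, 5.92, 5.98 and 5.85 in resting macrophages, in the same order. The groups overlapped in both subunits. With subunits by symbol, the distance between the 2 medians, large minus small, averaged 0.13 ± 0.03 in hemophagocytes and 0.20 ± 0.09 in resting macrophages (SD, n = 4 each). Its ranges, 0.09 to 0.17 and 0.09 to 0.30, overlapped as well.

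**Figure D2:**
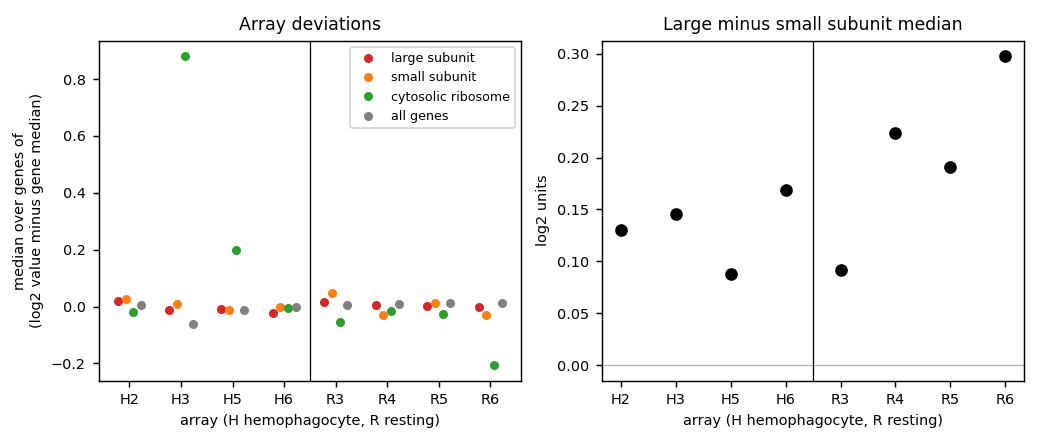
Left, for each array, the median over genes of the log2 value minus that gene's own median over the 8 arrays, for both mitochondrial subunits, the cytosolic ribosome and all genes. Right, the large subunit median minus the small subunit median in log2 units, with subunits by symbol. Hemophagocyte arrays (H) stand left of resting arrays (R), and their values overlap.

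Symbols do not always give the subunit. In ribosome structures Mrps18a and Mrps30 sit in the large subunit, and Mrps36 has been assigned to the 2-oxoglutarate dehydrogenase complex of the citric acid cycle. With the first pair moved and Mrps36 left out, the median changes were -0.03 for 50 large subunit genes and 0.03 for 26 small subunit genes. The distance between the median levels, large minus small, then averaged -0.007 (-0.04 to 0.03) in hemophagocytes and -0.08 (-0.12 to 0.008) in resting macrophages. The higher level of the large subunit by symbol thus did not hold under this assignment. Mrps18a had a log2 change of -0.06 (95% interval -0.39 to 0.27), Mrps30 one of -0.06 (-0.24 to 0.11) and Mrps36 one of -0.06 (-0.23 to 0.10).

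Among large subunit genes, Mrpl41, a protein of the mitochondrial ribosome without a bacterial counterpart, had the smallest p. Its values were 6.36, 6.15, 6.27 and 6.26 (log2) in hemophagocytes 2, 3, 5 and 6, against 6.45, 6.45, 6.48 and 6.51 in resting macrophages 3, 4, 5 and 6. All hemophagocyte arrays lay below all resting arrays. The log2 change was -0.21 (SE 0.07, 95% interval -0.36 to -0.06, limma unadjusted p = 0.010, adjusted p = 0.75), on probe set 10480579. A second and dimmer Mrpl41 probe set, 10561140, had a change of 0.14, so the probe sets of this gene disagreed in sign.

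The stalk of the large subunit, where translation factors dock, includes Mrpl10, Mrpl11 and Mrpl12. Mrpl12 stood at 6.65, 7.30, 6.44 and 6.71 in hemophagocytes 2, 3, 5 and 6, against 6.63, 6.48, 6.35 and 6.56 in resting macrophages 3, 4, 5 and 6. Hemophagocyte 3 alone was far above the others, and the groups overlapped (log2 change 0.27, SE 0.16, limma adjusted p = 0.75). Without hemophagocyte 3 the change was 0.096. Its partner Mrpl10, which anchors Mrpl12 to the ribosome, varied little, at 7.77 to 7.86 in hemophagocytes and 7.76 to 7.97 in resting macrophages (log2 change -0.04, 95% interval -0.20 to 0.12). Mrpl11, at the base of the stalk, had values of 6.11 to 6.33 in hemophagocytes and 6.18 to 6.58 in resting macrophages, with a change of -0.15 (-0.38 to 0.07), and -0.072 without resting macrophage 3. The stalk genes thus had changes of both signs and none passed.

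Other large subunit genes varied between arrays more than between groups. Mrpl42 stood at 3.09, 4.26, 3.02 and 3.15 in hemophagocytes 2, 3, 5 and 6, against 3.58, 3.69, 3.03 and 2.99 in resting macrophages 3, 4, 5 and 6. Hemophagocyte 3 was the highest array, and without it the change was -0.24 where all arrays gave 0.06 (adjusted p = 0.97 both with and without it). Mrpl33, a small protein with a bacterial counterpart, ranged between 5.44 and 6.50 in hemophagocytes and between 5.55 and 5.96 in resting macrophages, with the hemophagocyte 5 array highest and hemophagocyte 2 lowest. Its change was 0.13 (95% interval -0.30 to 0.55), and -0.06 without hemophagocyte 5. Mrpl58, a peptidyl-tRNA hydrolase that frees stalled mitochondrial ribosomes, ranged between 5.81 and 6.63 in hemophagocytes and between 5.81 and 6.20 in resting macrophages (change 0.09, 95% interval -0.29 to 0.47).

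The remaining large subunit genes named by rule had changes of both signs. Mrpl15 had a change of -0.18 (-0.39 to 0.04), Mrpl20, which in bacteria acts early in subunit assembly, one of 0.14 (-0.06 to 0.34) and Mrpl52 one of 0.15 (-0.06 to 0.35). Mrpl45, which tethers the large subunit to the inner membrane, had values of 4.69 to 4.85 in hemophagocytes and 4.48 to 4.86 in resting macrophages, a change of 0.08 (-0.12 to 0.28). The change of Mrpl15 was -0.083 without hemophagocyte 3, that of Mrpl20 0.075 without hemophagocyte 2 and 0.090 without resting macrophage 6, and that of Mrpl52 0.062 without resting macrophage 5. Their limma adjusted p lay between 0.75 and 0.86.

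In the small subunit the members with the smallest p were Mrps5, Mrps21, Mrps11 and Mrps22. Mrps5, whose bacterial counterpart lies near the entry channel of the messenger RNA, stood at 6.07, 6.15, 6.08 and 6.26 in hemophagocytes 2, 3, 5 and 6, against 6.29, 6.16, 6.43 and 6.55 in resting macrophages 3, 4, 5 and 6. The groups overlapped through hemophagocyte 6 and resting macrophage 4 (log2 change -0.22, SE 0.09, limma unadjusted p = 0.039, adjusted p = 0.75). A second Mrps5 probe set had a change of -0.01. Mrps11, of the subunit's platform, had values of 5.68 to 5.90 in hemophagocytes and 5.45 to 5.73 in resting macrophages, a change of 0.18 (95% interval -0.01 to 0.37). Mrps22, which has no bacterial counterpart and is mutated in some human mitochondrial diseases, had values of 6.79 to 6.95 in hemophagocytes and 6.58 to 6.94 in resting macrophages, a change of 0.17 (-0.03 to 0.36).

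Mrps21, the counterpart of a bacterial small subunit protein, had the largest positive change of the 77, and it came from few arrays. It stood at 4.71, 4.96, 7.16 and 3.79 (log2) in hemophagocytes 2, 3, 5 and 6, against 4.11, 3.94, 3.97 and 3.81 in resting macrophages 3, 4, 5 and 6. Hemophagocyte 5 was far above every other array, hemophagocytes 2 and 3 were above all resting arrays, and hemophagocyte 6 was below them. The log2 change was 1.20 (SE 0.54, 95% interval 0.01 to 2.40, limma unadjusted p = 0.049, adjusted p = 0.75), and it was 0.53 without hemophagocyte 5. Macrophage markers summed to 1461 to 4959 linear units in hemophagocytes, highest on hemophagocyte 5, and to 1570 to 1952 in resting macrophages, and platelet markers to 674 to 1943 in hemophagocytes and 733 to 826 in resting macrophages. Neutrophil markers summed to 763 to 1401 in hemophagocytes and 745 to 777 in resting macrophages. Such sums weigh bright genes most. On no array were 9 of 15 macrophage, 8 of 10 neutrophil and 4 of 6 platelet markers above the receptor percentile. The neutrophil markers S100a8 and S100a9 and the platelet marker Pf4 were highest on hemophagocyte 3, where Mrps21 stood at 4.96. Most of their lists did not rise there, with median deviations of -0.05 for neutrophil and 0.01 for platelet markers. On hemophagocyte 5, 5 of 15 macrophage, 1 of 10 neutrophil and 1 of 6 platelet markers lay over 1 log2 unit above their own medians. The part of these marker genes in the Mrps21 value was not tested.

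Mrps18c gave the widest swing of all members and in the other group. Mice have 3 descendants of the bacterial protein S18. Mrps18c takes its place in the small subunit, Mrps18b sits elsewhere in that subunit and Mrps18a in the large one. Mrps18c stood at 3.57, 3.66, 3.48 and 3.55 in hemophagocytes 2, 3, 5 and 6, against 3.43, 9.38, 3.58 and 3.37 in resting macrophages 3, 4, 5 and 6. The resting macrophage 4 array alone was high and the other arrays of both groups lay between 3.37 and 3.66. The log2 change was -1.37 (SE 1.11, 95% interval -3.83 to 1.08, limma adjusted p = 0.79), and without resting macrophage 4 it was 0.11. Mrps18a and Mrps18b did not share this value, at 5.43 and 6.78 on resting macrophage 4 beside at most 5.38 and 6.82 on any other array.

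**Figure D3:**
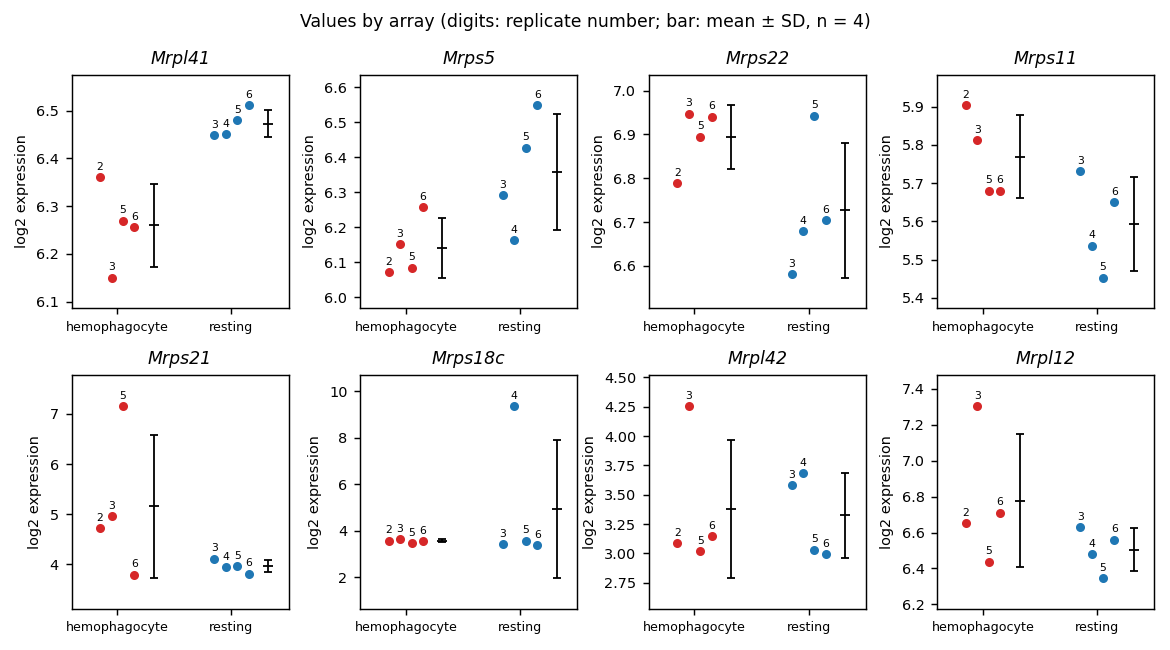
Log2 expression of 8 genes on each array, with replicate numbers beside the points and the mean ± SD (n = 4) beside each group, hemophagocytes left of resting macrophages; each panel has its own axis. Mrpl41 is the gene whose groups do not overlap, and the high points of Mrps21 and Mrps18c each come from 1 array.

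Other small subunit genes had small changes. Mrps12, which lines the decoding centre, had values of 7.15 to 7.28 in hemophagocytes and 7.26 to 7.53 in resting macrophages, a change of -0.14 (95% interval -0.31 to 0.03), and -0.086 without resting macrophage 5. Mrps25 had a change of -0.19 (-0.42 to 0.04), and -0.12 without hemophagocyte 5 or without resting macrophage 5. Mrps14 and Mrps16, both with bacterial counterparts, were named for their spread among hemophagocytes. Mrps14 had values of 5.82 to 6.48 in hemophagocytes and 5.81 to 6.28 in resting macrophages. Mrps16 stood at 7.82 and 7.92 on hemophagocytes 2 and 3 and at 7.23 and 7.24 on hemophagocytes 5 and 6, against 7.68 and 7.52 on resting macrophages 3 and 4 and 7.19 and 7.17 on resting macrophages 5 and 6. High and low arrays of Mrps16 thus occurred in both groups, and its change of 0.16 was 0.041 without hemophagocyte 3. The 53 members not named by rule, 37 of the large and 16 of the small subunit, had changes of -0.21 to 0.19, with 20 above 0 and a smallest unadjusted p of 0.17.

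**Figure D4:**
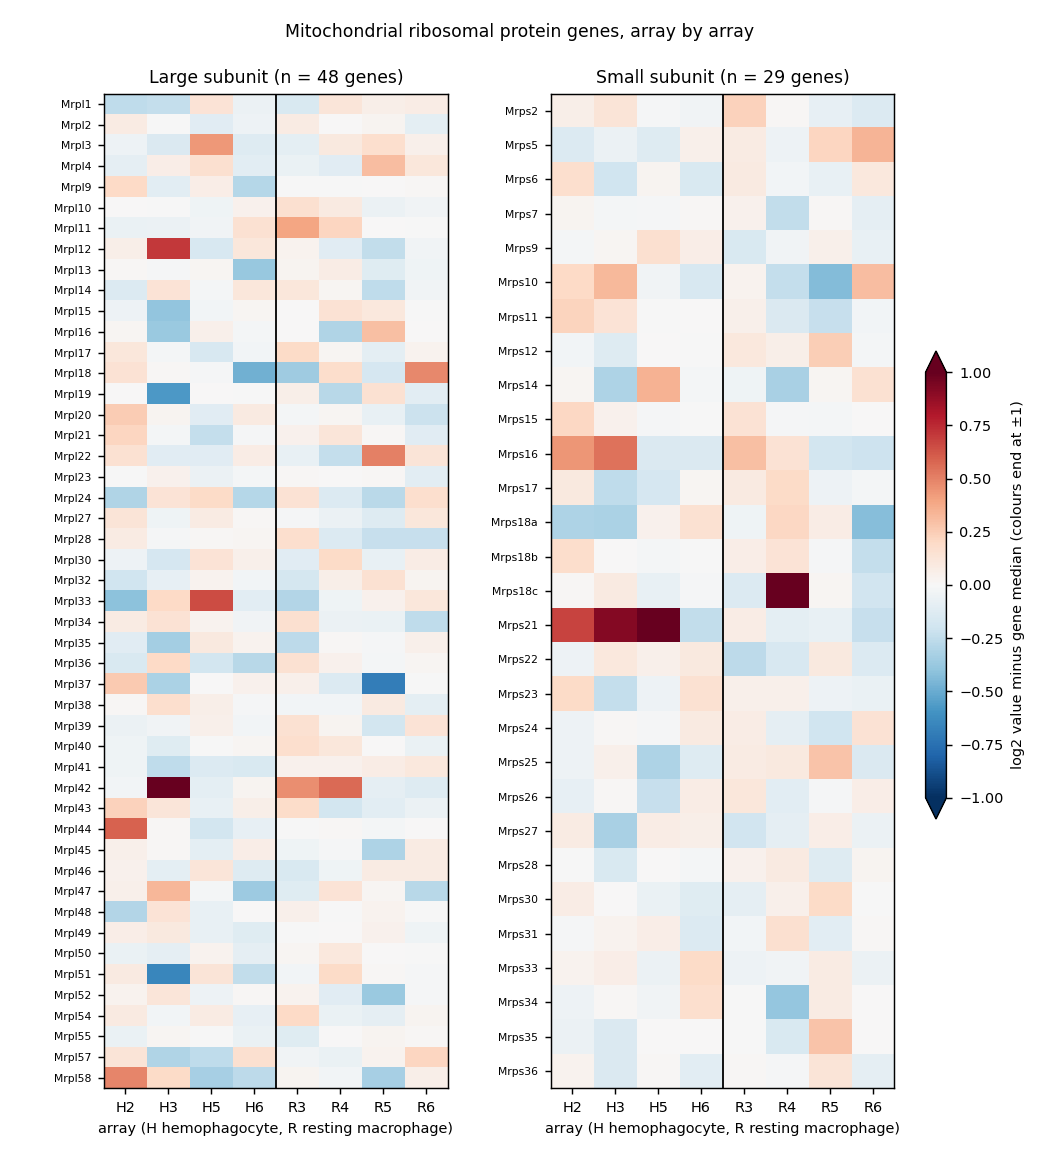
Log2 value of each of the 77 genes minus its own median over the 8 arrays, hemophagocytes (H) left and resting macrophages (R) right of the line; colours end at 1 log2 unit on either side. Most tiles are pale, and the darkest ones are Mrps18c on resting macrophage 4, Mrps21 on hemophagocyte 5 and Mrpl42 on hemophagocyte 3.

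The spread of each gene over the 8 arrays, highest minus lowest, was small in most members and large in few. Its median was 0.42 log2 units over the 77, against 0.39 over all genes. It passed 1 log2 unit in 4 members (5.19%), namely Mrps18c (6.01), Mrps21 (3.38), Mrpl42 (1.27) and Mrpl33 (1.06), where 3% of all genes did. Mrpl55 (0.15) and Mrpl23 (0.15) varied least. The median SD within a group was 0.13 among hemophagocytes and 0.12 among resting macrophages, against 0.13 and 0.11 over all genes. The larger SD was in hemophagocytes in 36 of 77 members and in 12027 of all 19938 genes.

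The other genes that serve mitochondrial translation also varied little between arrays, while genes of the cytosolic ribosome varied widely. The cytosolic genes were also brighter, at a median level of 7.18 (log2) where the 77 members had 6.11 and all genes 6.28. The bearing of brightness on this spread was not tested. Cytosolic ribosomal proteins exceeded 1 log2 unit of spread in 45 of 59 measured genes (76.3%, median 1.70), and their median change was 0.41 with 48 of 59 above 0. At an unadjusted p under 0.05, 14 of the 59 were higher and 0 lower, beside 1.53% and 5.05% of all genes. Without hemophagocyte 3 the median change was 0.13, with 10 higher and 1 lower at that p, and without hemophagocytes 3 and 5 it was 0.01, with 6 higher and 0 lower. With the mean of the receptor genes as a covariate it was 0.05. Rps20 had 7.81, 10.41, 10.42 and 10.04 in hemophagocytes 2, 3, 5 and 6, against 7.86, 4.19, 4.40 and 4.22 in resting macrophages 3, 4, 5 and 6, and did not pass (limma adjusted p = 0.55); without resting macrophage 3 its adjusted p was 0.020. The cytosolic genes' deviation was concentrated on hemophagocyte 3, where their median lay 0.88 above their own medians, while on that array the large and small mitochondrial subunits lay at -0.01 and 0.01. Hemophagocyte 3, the array with the lowest receptor mean, also had the highest S100a8 (8.02), S100a9 (9.12) and Pf4 (10.35), markers of neutrophils and platelets. On that array 2 of 10 neutrophil and 1 of 6 platelet markers lay over 1 log2 unit above their own medians. The median deviations of the neutrophil and platelet markers there were -0.05 and 0.01. The part of these markers in the cytosolic values was not tested. The mitochondrial and cytosolic lists were described and not tested against each other, and 0 members of either passed at an adjusted p under 0.05.

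Nuclear-encoded respiratory chain and ATP synthase genes, whose mitochondrial partners this ribosome makes, lay between. Their spread passed 1 log2 unit in 10 of 36 (27.8%), their median change was 0.10, and 25 of 36 were above 0. Without hemophagocyte 5 the median change was 0.009, with 19 of 36 above 0. Without hemophagocytes 3 and 5 it was 0.02, with 20 of 36 above 0. With all arrays, 7 were higher and 1 was lower at an unadjusted p under 0.05, beside 1.53% and 5.05% of all genes. Without hemophagocyte 3 these counts were 4 and 0, and without hemophagocyte 5 they were 5 and 1. The groups did not overlap in 3 genes with higher and 1 with lower values, beside 0.802% and 2.9% of all genes. Ndufb8 of complex I had the smallest p, at 6.54, 6.84, 6.71 and 7.07 in hemophagocytes 2, 3, 5 and 6, against 6.15, 6.13, 6.24 and 6.22 in resting macrophages 3, 4, 5 and 6. Its log2 change was 0.61 (95% interval 0.38 to 0.83), which did not pass over all genes (limma adjusted p = 0.42). Cox6c, of cytochrome c oxidase, stood at 11.23, 7.75, 10.33 and 8.09 in hemophagocytes 2, 3, 5 and 6, against 6.34, 7.25, 6.42 and 6.86 in resting macrophages 3, 4, 5 and 6. Ndufa8, also of complex I, had values of 7.25 to 7.55 in hemophagocytes and 7.03 to 7.15 in resting macrophages. The groups did not overlap in Cox6c or Ndufa8 either, and neither gene passed (limma adjusted p = 0.75 for each). Without hemophagocyte 2, 1 cytosolic ribosomal gene (Rps10) and 1 respiratory chain gene (Cox6a1, named here after its values were seen) passed. With the replicate number as a block, 1 respiratory chain gene and 0 cytosolic ribosomal genes passed.

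**Figure D5:**
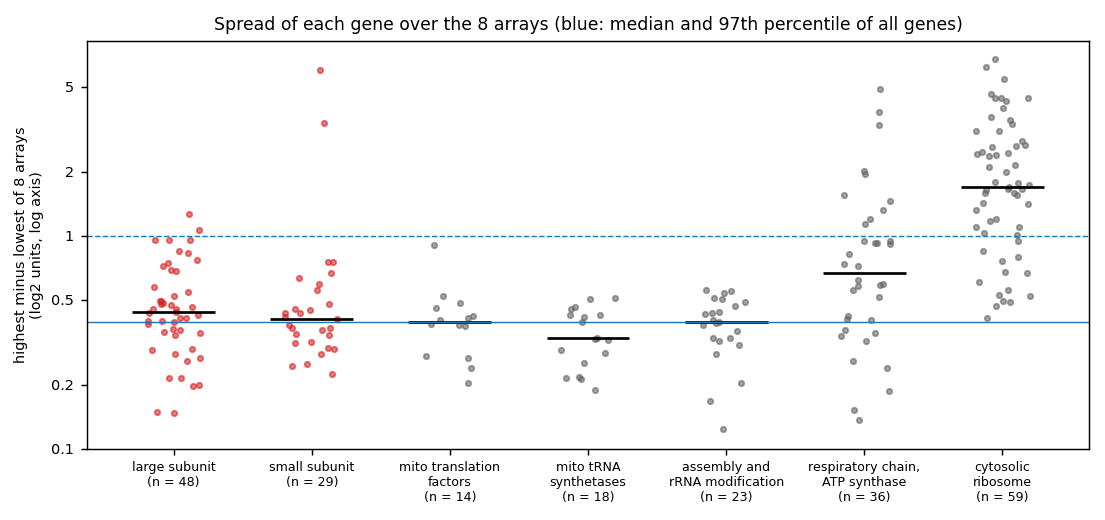
Highest minus lowest value over the 8 arrays (log2 units, log axis), a point per gene and a bar at each group's median; blue lines mark the median (0.39) and the 97th percentile (1.00) of all genes. Cytosolic ribosomal genes reach well above the mitochondrial ones, of which 4 exceed 1 log2 unit.

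Mitochondrial translation factors, 14 of 16 listed genes measured, had a median change of -0.03. Mtfmt, which formylates the initiator transfer RNA, had values of 6.51 to 6.75 in hemophagocytes and 6.76 to 6.93 in resting macrophages, a change of -0.19 that did not pass (limma adjusted p = 0.75). It was the 1 gene of the list below an unadjusted p of 0.05, where 5.05% of all genes were lower and 1.53% higher. The elongation factor Tsfm had a change of 0.12 and Trmt10c, which acts in transfer RNA processing, one of -0.08. Of 18 mitochondrial aminoacyl-tRNA synthetases 0 were below that p in either direction, with a median of -0.01 and Rars2 (-0.15), Hars2 (-0.14) and Iars2 (-0.10) first in order. The 23 genes of ribosome assembly and rRNA modification had a median of -0.03 and likewise 0 below that p, led by Mterf3 (-0.16), Trmt61b (-0.11) and C1qbp (-0.09).

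Ribosomal proteins without an Mrp symbol, 4 measured, had changes of -0.14 to 0.09. They included Dap3 (-0.14), a small subunit protein that binds GTP, Gadd45gip1 (0.09) and Chchd1 (-0.04). Among 13 genes of mitochondrial transcription and RNA stability the poly(A) polymerase Mtpap had a change of -0.23, with 4.19 to 4.49 in hemophagocytes and 4.58 to 4.63 in resting macrophages (limma adjusted p = 0.75). Tfam, which packages mitochondrial DNA and starts its transcription, had a change of 0.15, and Lrpprc, which stabilises mitochondrial messenger RNAs, one of -0.14. The 11 genes listed as nuclear activators of mitochondrial genes had a median of -0.04, with Pprc1 at -0.14, Yy1 at -0.18 and Tfb2m at -0.12. Tfb2m was counted among the 13 genes of mitochondrial transcription and RNA stability as well. In each of these lists, 0 members passed over all genes.

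Promoters were compared for what the members share beyond their names. RefSeq promoter windows of assembly GRCm38.p6, running 250 bases before to 50 bases after the start of a gene, were found for 68 of the 77. Motifs known from promoters of mitochondrial genes were searched on both strands, namely CGCANGCG for NRF-1, within the longer NRF-1 site, CCGGAAG for ETS factors such as GABP, and AANATGGC for YY1, none of which is part of another. The NRF-1 letters were in the windows of 20 of 68 members (29.4%), against 12.5% of 17492 protein-coding genes. The ETS letters were in 25 of 68 (36.8%), against 12.9%, and the YY1 letters in 21 of 68 (30.9%), against 7.46%. At least 1 of the 3 motifs was in 47 of 68 (69.1%), against 27.7%. Members with a motif had a median log2 change of 0.02 and the 21 without one a median of -0.03.

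The windows of the genes that varied most, Mrps18c and Mrps21, and of Mrpl41, whose groups did not overlap, are given 5′ to 3′ on the gene's strand, with any searched motif in capitals. Mrps18c (chr5:100798509-100798808, plus strand) holds the ETS letters on the opposite strand, starting at base -156 from the start site. Mrps21 (chr3:95871465-95871764, minus strand) holds the NRF-1 letters on the opposite strand at -90 and the ETS letters, also on the opposite strand, at 19, and Mrpl41 (chr2:24975049-24975348, minus strand) holds none of the motifs in this window.
Mrps18c: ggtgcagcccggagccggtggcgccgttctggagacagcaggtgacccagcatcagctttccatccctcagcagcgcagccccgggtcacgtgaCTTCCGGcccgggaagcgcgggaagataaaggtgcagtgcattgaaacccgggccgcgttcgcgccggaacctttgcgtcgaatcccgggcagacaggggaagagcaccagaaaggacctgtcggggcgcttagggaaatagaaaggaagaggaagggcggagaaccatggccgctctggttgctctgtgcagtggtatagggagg
Mrps21: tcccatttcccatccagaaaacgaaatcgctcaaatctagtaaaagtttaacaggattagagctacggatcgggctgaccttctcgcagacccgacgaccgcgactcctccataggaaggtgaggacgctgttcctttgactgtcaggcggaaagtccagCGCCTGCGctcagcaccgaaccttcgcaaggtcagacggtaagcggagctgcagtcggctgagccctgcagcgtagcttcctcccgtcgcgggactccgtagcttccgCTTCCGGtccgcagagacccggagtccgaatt
Mrpl41: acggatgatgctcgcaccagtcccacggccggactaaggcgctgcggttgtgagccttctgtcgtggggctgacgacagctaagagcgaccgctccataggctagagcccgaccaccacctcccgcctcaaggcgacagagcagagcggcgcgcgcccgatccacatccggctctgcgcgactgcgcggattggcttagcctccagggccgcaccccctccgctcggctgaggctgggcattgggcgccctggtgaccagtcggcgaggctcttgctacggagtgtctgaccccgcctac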

How the data were processed

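The table deposited by the authors holds 1 value per probe set and array for 35556 probe sets, on the log2 scale as judged from their range. Per the submitters' processing notes, Affymetrix Expression Console 1.1 was used. The sources used here do not state how it corrected background, summarised probes or scaled arrays. No scaling was added. Probe sets with several gene symbols (1621) or outside the platform annotation (12146) were left out, and dim ones were kept. All 77 members matched RefSeq (GRCm38.p6) by Entrez identifier, and 8 had several single-gene probe sets.

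Fits used limma 3.58.1 (R 4.3.3) with lmFit and eBayes and without a block, over all 19938 genes, with Benjamini-Hochberg adjustment and a threshold of 0.05. The scripts were tested on simulated data. Groups and replicate numbers came from the sample titles. The number of arrays, 4 per group, limits the precision.

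Named members were, per subunit, the 6 of smallest unadjusted p and the 4 of largest SD among hemophagocytes, any whose groups did not overlap, and 10 fixed for their place in the ribosome. Each other list gave up to 3 genes of smallest p. Members, lists and alternatives were chosen with earlier results of these data known. Alternatives covered scaling, filtering, the prior, array weights, probe set choice, a background covariate, left-out arrays, the replicate block and subunit assignment.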

Additional observations from a re-analysis of the deposited data

Results flagged for a closer look

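Within groups of 4 arrays, 5 of the 48 groups examined for the 24 named genes held an array far from the other 3, with a gap to the nearest above Dixon's 95% critical value for that size. Chance alone flags about 1 in 20 groups. Some of these genes were named for their spread, so the count is not read against that rate. Over all 77 members 14 of 154 groups (9.09%) held such an array, and over all genes 5.55% did. Mrps18c on resting macrophage 4 stood at 9.38 where the other resting arrays had 3.37 to 3.58. Mrpl42 on hemophagocyte 3 stood at 4.26 and the other hemophagocytes at 3.02 to 3.15. The remaining cases were small in size. Mrpl15 on hemophagocyte 3 was at 5.99 beside 6.33 to 6.40, Mrpl11 on hemophagocyte 6 at 6.33 beside 6.11 to 6.14, and Mrps18b on hemophagocyte 2 at 6.82 beside 6.62 to 6.65.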

How the results depend on the processing

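Under all 18 refitted settings, 0 members passed at an adjusted p under 0.05, and the smallest adjusted p of a named gene was 0.58. Leaving out genes below the median level kept 33 members in the test. The large subunit median of -0.03 ran from -0.042 to 0.014 when single arrays were left out, above 0 only without hemophagocyte 6, and was 0.012 with cyclic loess. The small subunit median of 0.03 ran from -0.02 to 0.07 over 19 alternatives, below 0 with the background covariate and without resting macrophage 6. The difference between the subunits, -0.06, ran from -0.06 to 0.004, above 0 only without hemophagocyte 6.

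Of 416 values of named genes under an alternative, 389 kept their sign and their side of the threshold, and 27, in 11 genes, changed sign without any passing. When single arrays were left out, changes ran from -0.070 to 0.0014 in Mrpl10, -0.061 to 0.29 in Mrpl33, -0.24 to 0.18 in Mrpl42, -0.0013 to 0.13 in Mrpl45 and -0.064 to 0.21 in Mrpl58. In the small subunit they ran from -0.055 to 0.16 in Mrps14, -0.18 to 0.028 in Mrps18a, -0.026 to 0.10 in Mrps18b and -1.90 to 0.11 in Mrps18c. With cyclic loess Mrpl10 was at 0.020, with array weights Mrpl42 at -0.091, and without hemophagocytes 3 and 5 Mrpl33 at -0.22 and Mrpl42 at -0.20. With the background covariate Mrpl12 was at -0.049, Mrpl42 at -0.47, Mrpl58 at -0.14, Mrps16 at -0.18 and Mrps18a at 0.11. The cause was not tested.

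With the replicate block Mrpl58 was at -0.051, Mrps14 at -0.038, Mrps18a at 0.095 and Mrps18c at 0.11. With that block 7 genes of all 19938 passed, where 2 did without it, and 11 passed without hemophagocyte 2. Replicate numbers 2 and 4 each occur in 1 group only. The block therefore takes up hemophagocyte 2 and resting macrophage 4, the high array of Mrps18c, and its changes rest on numbers 3, 5 and 6. Same-numbered arrays deviated together at r = 0.17 for number 3, 0.07 for 5 and 0.12 for 6 across genes. Differently numbered arrays ran from -0.24 (hemophagocyte 5 with resting macrophage 3) to 0.18 (hemophagocyte 2 with resting macrophage 3). The same-number values lay within that range, so the numbers were not taken to pair the samples. No array gave a signal clearly above background for most members, which limits what a small change can show.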

Other observations

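Some members outside the rule for named genes had 1 array apart from the others; they were chosen after their values were seen. Mrpl44, a protein related to ribonucleases of the RNase III family, stood at 6.12 on hemophagocyte 2, where the other hemophagocytes had 5.36 to 5.55 and the resting macrophages 5.51 to 5.54. Mrpl37 was at 6.27 to 6.85 in hemophagocytes and at 6.46 to 6.65 on 3 resting arrays, with 5.90 on resting macrophage 5. Mrpl51 was lowest on hemophagocyte 3, at 6.71, with 7.12 to 7.50 on the other hemophagocytes and 7.34 to 7.56 in resting macrophages. A dimmer Mrpl51 probe set had a log2 change of 0.01, where the probe set used had -0.21. Of the 8 members with several single-gene probe sets, the changes shared a sign in 4.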
